A study of Mus musculus with 6 samples.

Results

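The PARP genes described here are 9 members of the poly(ADP-ribose) polymerase family, Parp1, Parp2, Parp3, Parp4, Parp8, Parp9, Parp10, Parp12 and Parp14, picked by symbol from a table of 46078 mouse genes. They were proposed with the aged against young result of these same libraries in view. The values for that comparison, and any calls of members, are therefore a description and no test of them. RNA was sequenced from epithelial cells of the proximal small intestine of untreated C57BL/6JRj mice, 3 young (2 to 3 months) and 3 aged (20 to 22 months), with 1 library taken as 1 mouse. The cells were released with EDTA and trypsin and sorted for EpCam and against CD45, so stem, Paneth, goblet, endocrine and absorptive cells are mixed in each library. No batch, sex or pairing is given for the mice. Replicate numbers here follow the running library numbers within each group and tie no young mouse to an aged one. In such bulk RNA, fewer cells of a type and less RNA per cell cannot be told apart. P-values set the difference between the ages against the spread among these libraries within each age.

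PARP enzymes take ADP-ribose from NAD and attach it to proteins or nucleic acids. Parp1 and Parp2 build long poly(ADP-ribose) chains at broken DNA and recruit repair factors to them. Most other active members, Parp3 among them, add single ADP-ribose units, and several of the family, such as Parp9, Parp12 and Parp14, are known as interferon-stimulated genes with antiviral or immune roles. In the gut, interferon-gamma is made mainly by lymphocytes within and beneath the epithelium.

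Each library held 41479573 to 58989166 counts. Levels are CPM, that is counts divided by the library size and brought to the same scale, with TMM factors that correct for composition. Of all genes in the table, 14923 passed the filter on low counts and were tested, and all 9 PARP members were among them. Benjamini-Hochberg adjusted p below 0.05 in edgeR's quasi-likelihood test called 93 genes (0.623%) higher and 117 (0.784%) lower in aged mice. Without adjustment, 9.23% of genes had p below 0.05. Parp3 was the only member called by this test, DESeq2 called Parp3, Parp9 and Parp14, and edgeR called Parp9 without a filter and Parp14 without young replicate 2 as well. The choice of members used this comparison, so nothing is read from these counts. The epithelial markers Epcam, Cdh1, Krt8, Krt18, Krt20, Vil1 and Cdx2 summed to 7169 to 7601 CPM in young and 6818 to 7456 CPM in aged libraries. Of these, Epcam, which the sorting used, lay at 1634 to 1668 CPM in young and lower, at 1501 to 1523 CPM, in aged libraries. Its log2 fold change was -0.13 ± 0.07 (SE, edgeR adjusted p = 0.65), and the groups of the other 6 overlapped. The 15 leukocyte markers summed to only 2.16 to 2.501 CPM in young and 2.81 to 3.57 CPM in aged libraries, and these ranges did not overlap. Only 5 of the 15 were abundant enough to test, and 0 of them were called by edgeR, DESeq2 or limma-voom or had an unadjusted p below 0.05. Ptprc, which encodes CD45, lay between 0.168 and 0.287 CPM in all 6 libraries. Its log2 fold change of -0.06 was the lowest of the 5 tested leukocyte markers and the only 1 below 0. The other 4 lay above 0, up to 0.80 for Cd79a, and the median of the 5 was 0.52. Of 6 fibroblast and 3 endothelial markers, Lum, Cdh5 and Kdr were at 0 counts in all 6 libraries. The endothelial marker Pecam1 lay between 0.676 and 1.48 CPM, with overlapping groups and a log2 fold change of 0.50 ± 0.29 (SE, edgeR adjusted p = 0.704), and the fibroblast marker Col1a1 had 4 to 12 counts per library. A count of 0 allows up to 3 counts, or 0.0509 to 0.0723 CPM depending on the library, and covers counting error only. The part of these other cells in the PARP values was not tested.

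Parp3 (ENSMUSG00000023249, chromosome 9, 106470322 to 106476949, minus strand, GRCm38) encodes an enzyme of the repair of double-strand breaks by end joining. Its counts were 487, 867 and 512 in the young libraries and 2170, 1983 and 2095 in the aged libraries. After scaling these were 11.1, 14.7 and 12.3 CPM in young and 45.8, 43.5 and 37.3 CPM in aged mice. Every aged library was thus far above every young one, with no overlap and with aged replicate 3 the lowest of its group. The mean went from 12.7 ± 1.82 CPM to 42.2 ± 4.39 CPM (SD, n = 3 each), a log2 fold change of 1.73 ± 0.13 (SE), or 3.32-fold. With any 1 library left out, the log2 fold change lay between 1.64 and 1.85.

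**Figure D1:**
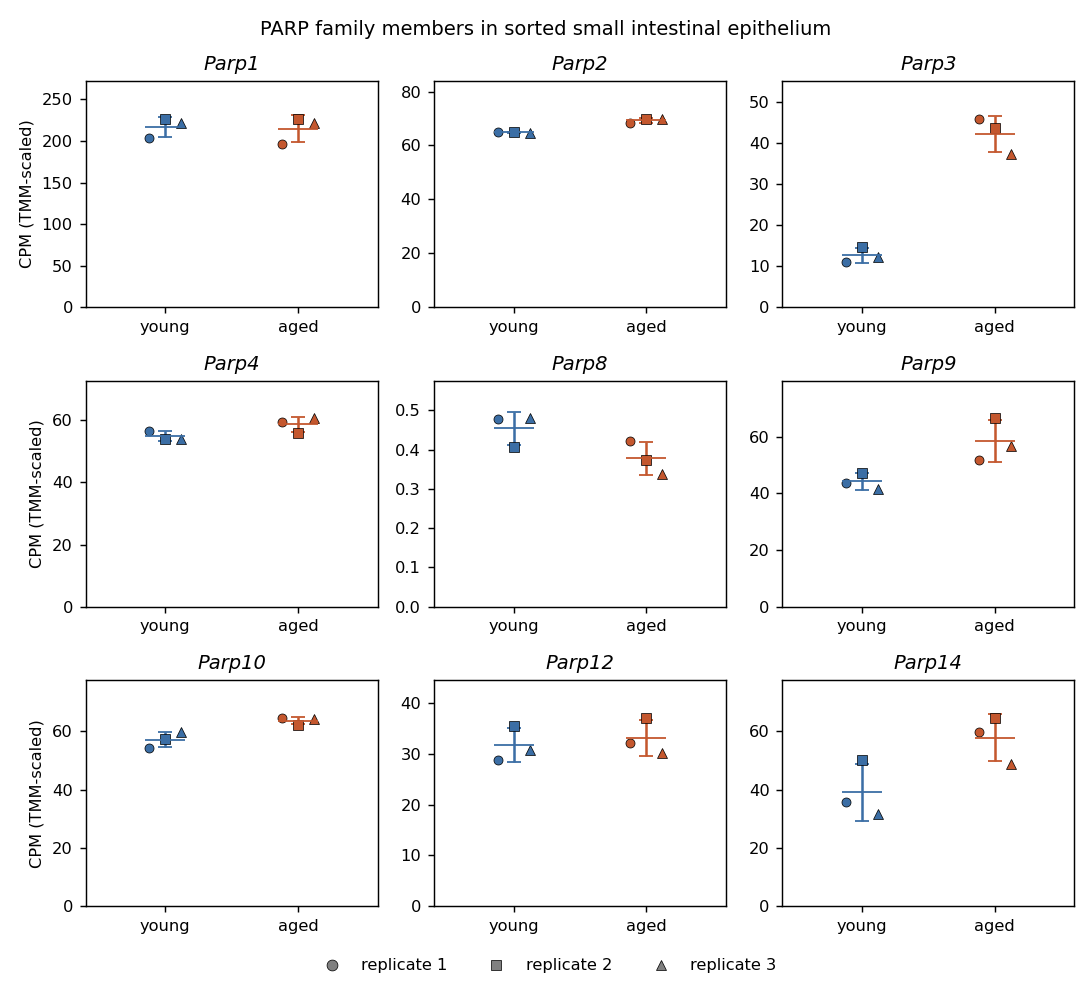
TMM-scaled CPM of each PARP member in the 3 young and 3 aged libraries, 1 panel per gene with its own axis from 0. Symbols are libraries, and horizontal marks with bars are the mean and SD. In the Parp3 panel the aged libraries (37.3 to 45.8 CPM) stand far above the young ones (11.1 to 14.7 CPM), while the Parp1 and Parp12 groups overlap.

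The start region of Parp3 is shown because it is shared with a gene whose levels overlapped between the ages. The RefSeq starts of Parp3 and of Rrp9, a gene for ribosomal RNA processing on the opposite strand, lie 360 bases apart and point away from each other. The window chr9:106476900-106477199 (GRCm38.p6, minus strand, RefSeq) covers 250 bases before and 50 after the Parp3 start, and the capitals mark the 141 bases that the Rrp9 window also covers.
Parp3: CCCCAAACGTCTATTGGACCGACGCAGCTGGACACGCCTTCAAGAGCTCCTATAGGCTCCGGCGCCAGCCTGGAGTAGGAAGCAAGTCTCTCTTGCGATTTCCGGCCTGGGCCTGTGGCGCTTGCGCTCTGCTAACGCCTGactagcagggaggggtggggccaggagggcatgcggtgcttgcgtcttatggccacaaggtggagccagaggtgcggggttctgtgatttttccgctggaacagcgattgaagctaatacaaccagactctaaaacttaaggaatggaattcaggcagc
Rrp9 stood at 52.2, 62.6 and 56.4 CPM in young and 63.4, 71.0 and 60.3 CPM in aged mice. The groups overlapped, since aged replicate 3 lay below young replicate 2. Its log2 fold change was 0.19 ± 0.09 (SE) and missed the threshold (edgeR adjusted p = 0.640; range over the alternatives 0.241 to 0.9995). GENCODE M21 places the genes otherwise than RefSeq. There Rrp9 begins at 106475963, inside Parp3, with 986 bases between the starts. The 2 genes thus overlap at their starts in that annotation, and their exons share 20 bases on opposite strands. The nearest tested genes that do not overlap Parp3, Pcbp4 on the left and Grm2 on the right, did not pass the test either.

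Parp1 and Parp2, the sensors of DNA breaks, differed little between ages. Parp1 (chromosome 1, 180568924 to 180601254) stood at 203.6, 226.5 and 221.3 CPM in young and 196.6, 226.8 and 221.5 CPM in aged mice. Both groups covered nearly the same range. The log2 fold change was -0.01 ± 0.08 (SE), and its sign varied when single libraries were left out, from -0.06 to 0.05. Parp2 (chromosome 14, 50807841 to 50821301) stood at 64.8, 65.2 and 64.7 CPM in young and 68.3, 69.8 and 69.9 CPM in aged mice. All aged libraries lay above all young ones, but by little: the fold was 1.07. Parp2 was also the steadiest member within a group, with a pooled SD of 0.014 on the log2 scale. Among 2876 genes of similar abundance (within 1.5-fold), 0.104% had a smaller spread.

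Parp4 encodes the large PARP of the vault, a ribonucleoprotein particle of the cytoplasm. It gave 56.7, 54.1 and 54.1 CPM in the young and 59.5, 56.0 and 60.6 CPM in aged libraries. The groups overlapped, as aged replicate 2 lay below young replicate 1, and the log2 fold change was 0.10 ± 0.07 (SE). The other vault proteins were also measured. Mvp, the major vault protein, stood at 262.3 ± 33.6 and 312.6 ± 29.9 CPM (log2 fold change 0.25, edgeR adjusted p = 0.501). Tep1, a vault protein gene that also neighbours Parp2 on chromosome 14, stood at 236.7 ± 19.1 and 244.1 ± 19.6 CPM (log2 fold change 0.05, edgeR adjusted p = 0.946).

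Parp9, Parp12 and Parp14 belong to the interferon-stimulated members. Parp9 carries macrodomains, which bind ADP-ribose, and works with the ubiquitin ligase encoded by Dtx3l. Its levels were 43.8, 47.3 and 41.4 CPM in young and 51.8, 66.4 and 56.7 CPM in aged mice. Each aged library lay above each young one, with aged replicate 2 the highest. The log2 fold change was 0.40 ± 0.10 (SE), or 1.32-fold.

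Parp14 (chromosome 16, 35832874 to 35871544), another macrodomain protein and a coactivator of STAT6 in mouse lymphocytes, stood at 35.6, 50.04 and 31.6 CPM in young and 59.9, 64.6 and 48.9 CPM in aged libraries. Young replicate 2 lay above aged replicate 3, so the groups overlapped. The log2 fold change of 0.56 ± 0.17 (SE) came next after that of Parp3 among the 9, with a wide spread behind it. Its pooled SD within groups was 0.28 on the log2 scale, the largest of the 9, and larger than in 95.8% of 2958 genes of similar abundance. The log2 fold change lay between 0.43 and 0.77 with 1 library left out.

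Parp12, a zinc finger protein with antiviral activity, had overlapping groups. It stood at 28.8, 35.4 and 30.7 CPM in young and 32.0, 37.0 and 30.1 CPM in aged mice. The lowest aged library lay below 2 of the young ones, and the log2 fold change was 0.06 ± 0.11 (SE). With 1 library left out it lay between -0.03 and 0.14, falling below 0 without young replicate 1 and without aged replicate 2.

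Parp9 and Dtx3l overlap head to head on chromosome 16 (Parp9 at 35938470 to 35972605, plus strand), with 458 shared exon bases on opposite strands. The kit marks strand, but no source used here gives the strand setting of the counting, and reads of the shared stretch are uncertain for both genes. Dtx3l, the partner, stood at 56.6, 63.0 and 52.4 CPM in young and 71.6, 87.9 and 76.8 CPM in aged libraries. All aged libraries lay above all young ones. The log2 fold change was 0.46 ± 0.10 (SE), which missed the threshold over all genes (edgeR adjusted p = 0.0693; range over the alternatives 0.00287 to 0.264). It was called without young replicate 2 (adjusted p = 0.0461), with DESeq2 (0.00510) and without a filter on low counts (0.00287). The ratio of Parp9 to Dtx3l CPM was 0.751 to 0.790 in young and 0.723 to 0.756 in aged libraries, ranges that overlapped and were narrow in both groups. The ratio of Parp14 to Parp9, which lie 66926 bases apart, was looser, at 0.765 to 1.06 in young and 0.862 to 1.16 in aged libraries. Kpna1 and Hspbap1, on the outer sides of this cluster, did not pass the test. Gm15564, an antisense transcript overlapping a Parp9 intron, had a log2 fold change of -0.24 (edgeR adjusted p = 0.793).

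**Figure D2:**
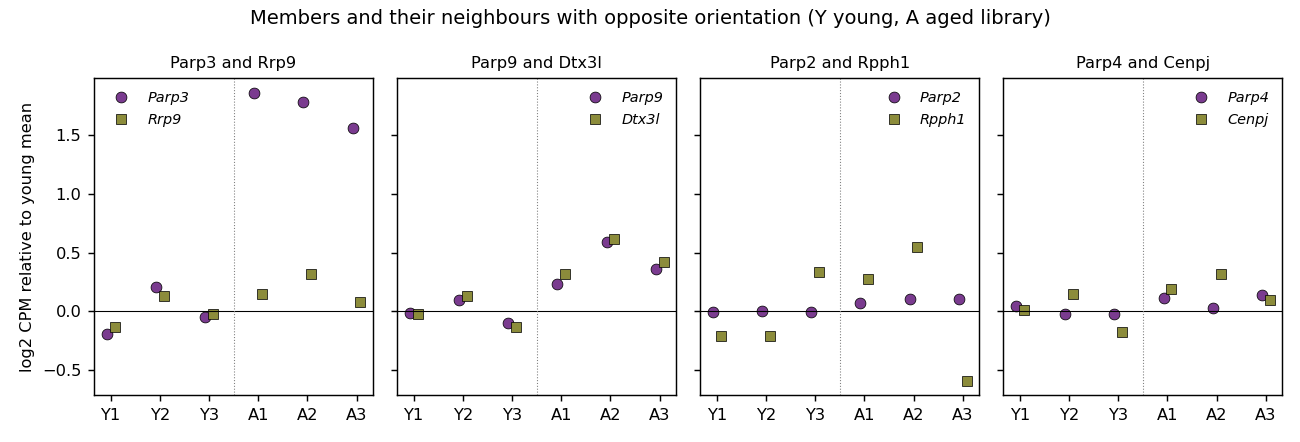
Level of 4 members and of a neighbour on the opposite strand, as log2 CPM relative to the young mean of each gene (vertical axis), in young (Y1 to Y3) and aged (A1 to A3) libraries. Parp3 separates from Rrp9 in all 3 aged libraries, while Parp9 and Dtx3l lie side by side in all 6.

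Parp10, a mono-ADP-ribosyltransferase, stood at 54.4, 57.4 and 59.6 CPM in young and 64.5, 62.1 and 64.1 CPM in aged mice. Each aged library lay above each young one, and the log2 fold change was 0.16 ± 0.07 (SE), or 1.11-fold. Its exons share 205 bases with Plec on the same strand, a far more abundant gene whose mean was 255.2 ± 20.97 CPM in young mice and 298.8 ± 49.7 CPM in aged mice (edgeR adjusted p = 0.653), so part of the Parp10 count is uncertain. Parp8, another mono-ADP-ribosyltransferase, was barely detected, with 21, 24 and 20 counts in young and 20, 17 and 19 in aged libraries. These are 0.478, 0.406 and 0.480 CPM against 0.422, 0.373 and 0.339 CPM. The groups overlapped, and at this depth the log2 fold change of -0.26 ± 0.29 (SE) is smaller than its error.

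In the family as described above, 4 of 9 members (Parp2, Parp3, Parp9 and Parp10) had aged libraries all above young ones, where 6.3% of all genes tested did so, and 0 had them all below, against 7.49% of all genes. These counts come from the comparison that was known when the members were chosen. The median log2 fold change was 0.10 over the 9 members and 0.01 over all tested genes. The sum of all 9 ran from 499.2 to 550.9 CPM in young and from 578.9 to 626.6 CPM in aged libraries. Without Parp3 the sums were 488.1 to 536.3 CPM and 533.1 to 583.2 CPM, and the groups then overlapped.

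To compare genes with each other, levels were divided by exon length (CPM per kb of exon, all annotated exons of a gene merged). The merged length can exceed that of the transcripts present, so ranks, ratios and shares between genes depend on it, which was not tested. Parp1 led in both ages, at 41.02 ± 2.27 CPM per kb in young and 40.6 ± 3.04 in aged mice, and its range was apart from that of every other family gene. Parp2 followed at 17.9 ± 0.0656 and 19.1 ± 0.247 CPM per kb. Its range overlapped that of Zc3hav1, the zinc finger antiviral protein of the same superfamily, in both ages. Parp10 ranked 5, at 13.4 ± 0.612 and 14.9 ± 0.298 CPM per kb, and its range overlapped that of Tnks2 above it only in aged mice.

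Parp3 took another place in each age. In young mice it stood at 3.43 ± 0.492 CPM per kb and ranked 13 of the 16 superfamily genes, with a range that overlapped those of Parp14 above it and Parp16 below it. In aged mice it stood at 11.4 ± 1.19 CPM per kb and ranked 7, where its range overlapped that of Parp9 above it but not that of Parp4 below it. Against Parp2 in the same library, the level per kb of Parp3 was 0.168 to 0.221 in young and 0.524 to 0.658 in aged mice. It made up 2.97 to 3.59% of the summed per-kb level of the 9 members in young and 8.41 to 10.5% in aged libraries. Parp8 was last in both ages, at 0.0512 ± 0.00475 and 0.0425 ± 0.00474 CPM per kb.

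**Figure D3:**
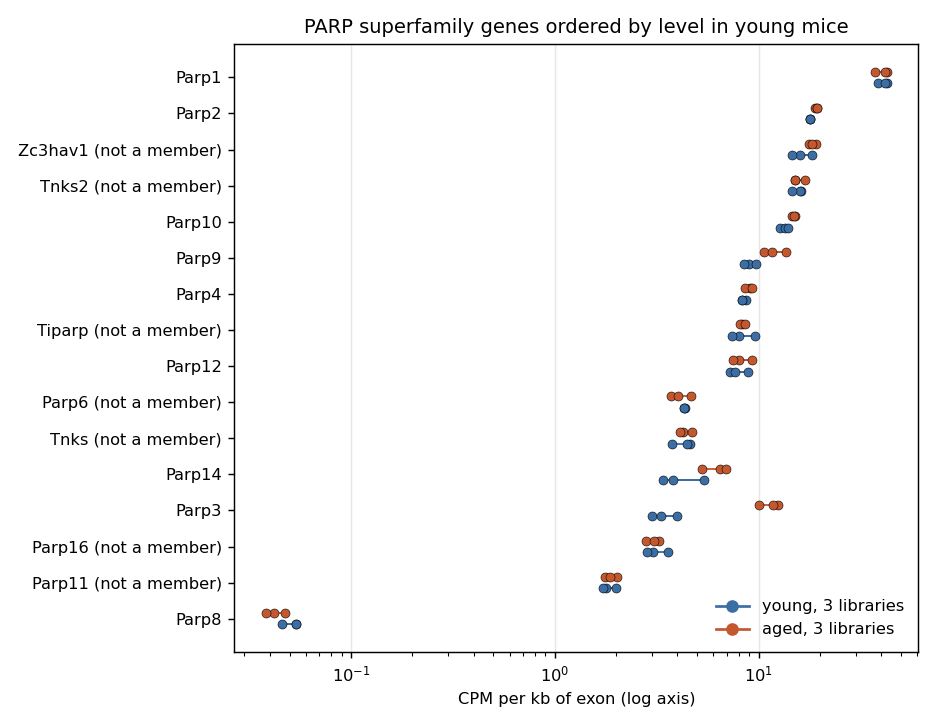
CPM per kb of exon on a log axis for the 9 members and 7 other PARP superfamily genes, ordered from bottom to top by level in young mice, with 3 young (blue) and 3 aged (orange) libraries per gene. Parp3 is the gene whose aged libraries lie farthest from its young ones, from 3.43 to 11.4 CPM per kb on average.

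The 7 superfamily genes outside the group were tested: Tnks, Tnks2, Parp6, Tiparp, Parp11, Parp16 and Zc3hav1. Of these 0 of 7 were called in either direction, beside 1.41% of all genes, and their log2 fold changes ran from -0.07 to 0.17. Zc3hav1 had the highest value, with 106.5 ± 12.3 CPM in young and 119.7 ± 4.38 CPM in aged mice (edgeR adjusted p = 0.673). Tnks2, a tankyrase, which ADP-ribosylates telomere and Wnt pathway proteins, stood at 162.4 ± 8.55 and 162.9 ± 10.4 CPM (log2 fold change 0.004 ± 0.08 SE). The groups overlapped in all 7 genes, 0 had an unadjusted p below 0.05 (9.23% of all genes), and DESeq2 and limma-voom called 0.

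Enzymes that remove ADP-ribose, such as Parg, Adprhl2 and the macrodomain hydrolases, gave 0 calls among 9 tested genes, beside 1.41% of all genes. Lists this short would hold few calls at that share. Of the 9, 2 had an unadjusted p below 0.05, beside 9.23% of all genes. The median log2 fold change was -0.01, with a range from -0.36 to 0.28. Oard1, which cleaves ADP-ribose from glutamate, stood at 45.7 ± 3.21 and 45.8 ± 2.27 CPM, and Nudt9, an ADP-ribose pyrophosphatase, at 60.3 ± 2.18 and 65.8 ± 2.98 CPM (edgeR adjusted p = 0.995 and 0.701). Cofactors and readers of the mark, Dtx3l among them, gave 0 calls among 8 tested genes, with 2 at an unadjusted p below 0.05, beside the same shares of all genes. Their median was -0.005, with a range from -1.06 to 0.46. DESeq2 called Dtx3l and limma-voom 0 of the 8. Of the most abundant readers, H2afy, which encodes the macrodomain histone macroH2A1, had a log2 fold change of 0.002 ± 0.07, and Chfr, a ubiquitin ligase, one of -0.09 ± 0.07 (SE, edgeR adjusted p = 0.996 and 0.827). The lowest value of the list was that of H2afy2, picked out after its values were seen, which encodes the related histone macroH2A2. It was scarce, at 67, 63 and 89 counts in young and 31, 34 and 47 counts in aged libraries. All aged libraries lay below all young ones, with a log2 fold change of -1.06 ± 0.30 (SE, edgeR adjusted p = 0.184, unadjusted 0.0065).

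Repair pathways that PARP enzymes serve had medians close to that of all genes. Base excision and single-strand break repair gave 0 calls among 14 tested genes, beside 1.41% of all genes. An unadjusted p below 0.05 was found for 1, beside 9.23% of all genes. The median log2 fold change was 0.015, with a range from -0.07 to 0.27. Apex1, the abasic site nuclease, stood at 102.6 ± 3.18 and 101.7 ± 6.55 CPM, and Fen1, the flap nuclease, at 102.9 ± 14.5 and 123.7 ± 10.9 CPM (edgeR adjusted p = 0.983 and 0.478). End joining, the pathway in which Parp3 works, gave 0 calls among 10 tested genes, 0 at an unadjusted p below 0.05, beside the same shares of all genes (median 0.05, range -0.10 to 0.22). Lists this short would hold few calls at these shares. Xrcc6, which encodes the Ku70 subunit that binds DNA ends, stood at 82.1 ± 1.93 and 83.5 ± 6.71 CPM, and the polymerase gene Polm at 39.8 ± 0.247 and 43.0 ± 2.17 CPM (edgeR adjusted p = 0.970 and 0.787). DESeq2 and limma-voom called 0 genes in both repair lists and among the removal enzymes.

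Interferon signalling genes gave 2 calls among 15 tested, both higher in aged mice, where 0.623% of all genes were called higher. An unadjusted p below 0.05 was found for 5 of the 15, beside 9.23% of all genes, and the median log2 fold change was 0.12. The list was chosen with earlier results of these data known, so these counts are a description and no test of the list. Irf1, a transcription factor induced by interferon-gamma, stood at 190.5, 241.7 and 206.5 CPM in young and 338.5, 347.9 and 314.7 CPM in aged libraries. All 3 aged libraries lay above the young ones, and Irf1 rose with a log2 fold change of 0.65 ± 0.10 (SE, edgeR adjusted p = 0.0130; range over the alternatives 8.52e-07 to 0.0766). Leaving out young replicate 1 or 3 ended its call (adjusted p = 0.0506 and 0.0564), and so did leaving out aged replicate 1 or 2 (0.0766 and 0.0684). Irf8, a related factor, stood at 132.9, 130.5 and 152.0 CPM in young and 173.6, 208.5 and 196.9 CPM in aged mice, again without overlap. It rose by 0.48 ± 0.09 on the log2 scale (SE, edgeR adjusted p = 0.0443; range over the alternatives 0.000814 to 0.197), and its call was lost without any 1 of the 6 libraries. The call was also lost with all libraries kept, with limma-voom (adjusted p = 0.0527), upper-quartile factors (0.0557) and the filter of 1 CPM in 3 libraries (0.0627). Of the other 13 genes, Socs1, a feedback inhibitor of cytokine receptors, also had aged libraries above all young ones and was picked out after its values were seen. It stood at 3.66 ± 0.578 and 5.36 ± 0.644 CPM (log2 fold change 0.55, edgeR adjusted p = 0.267).

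**Figure D4:**
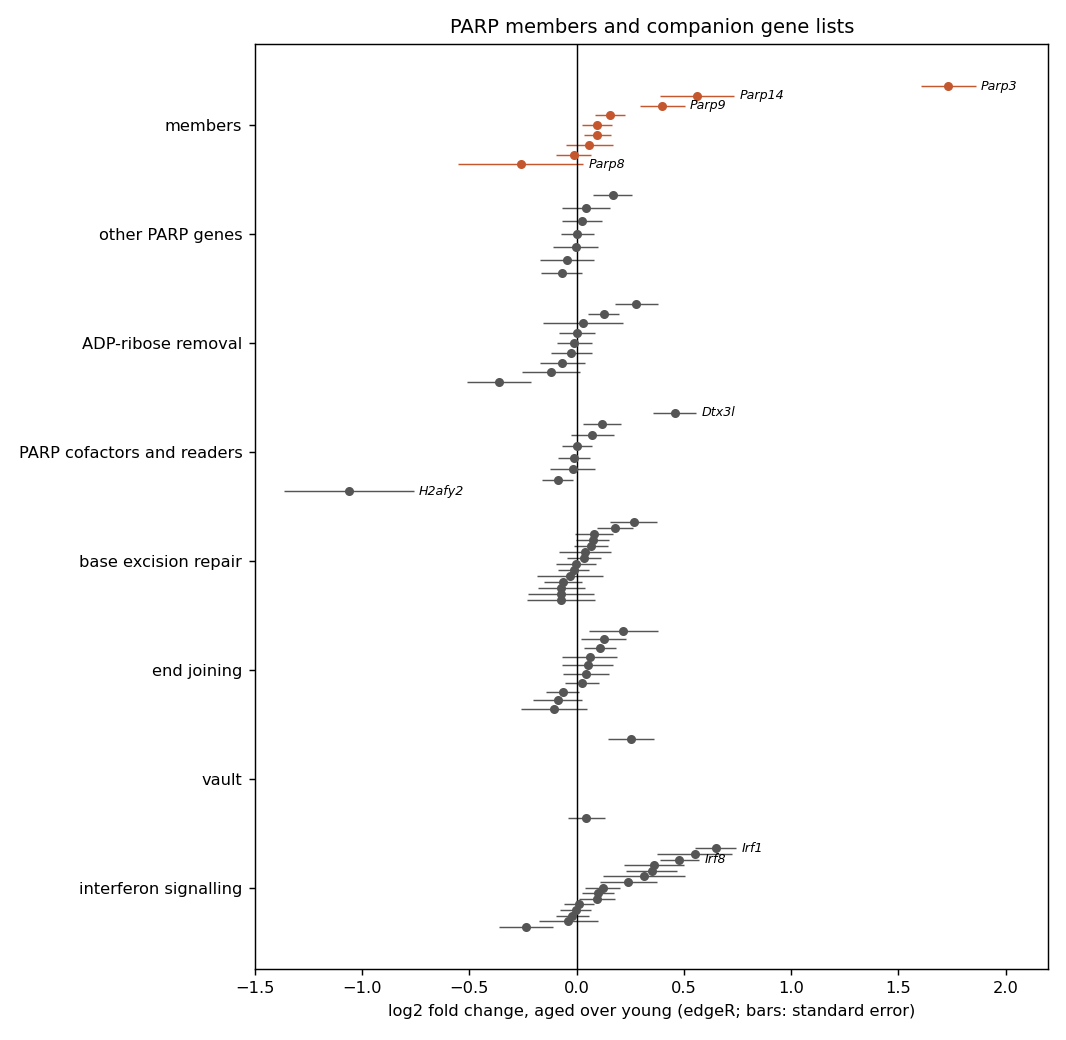
Log2 fold change of aged over young mice (horizontal axis, bars are standard errors from edgeR) for each tested gene of the PARP members (orange) and of 7 companion lists (grey). The highest plotted value of a companion list is 0.65 for Irf1, with 1 gene of the interferon list not reported. Parp3 lies at 1.73, but it was chosen with this comparison known, so its place beside the lists is a description and no test.

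Genes whose pattern over the 6 libraries was most like that of Parp3 were sought among 9939 genes that averaged 5 CPM or more. The averages ran over all 6 libraries, so a gene could enter through the age in which it was high. Ciita did so, with means of 4.27 CPM in young and 61.2 CPM in aged mice. By Pearson r of log2 CPM the nearest were Ciita (0.992), Smtn (0.992), H2-Eb1 (0.989), Cd74 (0.985) and Irf1 (0.985). Of these, Ciita, H2-Eb1 and Cd74 are genes of MHC class II antigen presentation and Smtn encodes the cytoskeletal protein smoothelin. Their log2 fold changes differed widely, from 0.35 for Smtn to 5.11 for H2-Eb1. The genes most like Parp14 were Senp3, Rab21, Simc1, Haus3 and Ppp2r2a, with r between 0.990 and 0.995 and log2 fold changes of only 0.12 to 0.27. All these r are over 6 libraries, share the step between ages and are a description.

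Promoter windows of RefSeq (250 bases before to 50 after the start) were matched for 6 of the 9 members, Parp1, Parp2, Parp3, Parp4, Parp8 and Parp12. They were searched on both strands for the core of the interferon-stimulated response element, read as GAAA, any 2 bases and GAAA, and for TTCNNNGAA, the gamma-activated site. Of these 6 members 1, Parp4, held the first motif, and 0 held the second. Among all 27025 genes with windows, 3.99% held the first motif and 9.55% the second. Counted by window, the shares were 3.44% and 8.3% of 32851. No window was matched for Parp9, Parp10 and Parp14, so nothing is said of their promoters. The Parp4 window is shown because it is the only one of a member with a match, at chr14:56575369-56575668 (GRCm38.p6, plus strand). The capitals mark 2 overlapping matches that begin 150 and 144 bases before the start.
Parp4: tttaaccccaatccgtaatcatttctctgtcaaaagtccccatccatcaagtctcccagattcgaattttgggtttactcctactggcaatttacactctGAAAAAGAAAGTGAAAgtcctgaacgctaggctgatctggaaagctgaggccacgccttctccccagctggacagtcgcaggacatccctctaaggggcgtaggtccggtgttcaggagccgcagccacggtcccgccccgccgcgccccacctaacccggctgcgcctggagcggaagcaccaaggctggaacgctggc
Among the other superfamily genes, Parp11 held both motifs in 1 of its 2 windows and Parp16 held the second. A match in these letters is a description of the window and not a bound site.

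Genes next to the members were read from GENCODE M21 as the nearest tested gene on each side and any overlapping gene. In all, 20 such genes outside the group were tested. Of these edgeR called 0, beside 1.41% of all genes, and 3 had an unadjusted p below 0.05, beside 9.23% of all genes. A list this short would hold few calls at that share. DESeq2 called Dtx3l and limma-voom 0. The log2 fold changes ran from -1.47 (Emb, on the right of Parp8) to 0.46 (Dtx3l). Rpph1, the RNase P RNA gene whose start lies 74 bases from that of Parp2, ranged from 8.77 to 19.2 CPM over the aged libraries alone (log2 fold change 0.16 ± 0.28 SE, edgeR adjusted p = 0.939). It is not a typical polyadenylated RNA, and the libraries were made from poly(A) RNA. Cenpj, a centriole gene 194 bases from Parp4 on the other strand, stood at 12.5 ± 1.36 and 14.5 ± 1.13 CPM (edgeR adjusted p = 0.714). Emb, which missed the threshold at an adjusted p of 0.125, was called without a filter (0.0431), and Isl1, the other neighbour of Parp8, without young replicate 2 (0.0375). Both were picked out after their values were seen.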

How the data were processed

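Raw counts per gene were used as deposited, in 1 table of 6 libraries that were not pooled; whole numbers with unequal totals show that the authors had not normalised them. The submitters' processing notes name GRCm38, STAR, featureCounts 1.6.4 and DESeq2 1.28.1 among other tools, without role or order. No source used here gives the annotation release or the strand setting. Genes were filtered with filterByExpr (minimum count 10) of edgeR 4.0.16, scaled by TMM and tested with the quasi-likelihood test with robust estimation, age being the only term (R 4.3.3). Standard errors are the size of the log2 fold change over the square root of F. P-values were adjusted over all 14923 genes, and the threshold was 0.05. The script was tested on simulated data. Positions, exon lengths and overlaps are from GENCODE M21 (GRCm38). Log2 CPM for spread and r used a prior count of 2. The named genes were all members, called companions or otherwise the 2 most abundant per list by CPM per kb, neighbours, and the 5 genes most like Parp3 and Parp14 in pattern, without Gm, Rik and unnamed symbols. Members, lists and alternatives were chosen with earlier results of these data known. The alternatives were DESeq2 1.42.0, limma-voom (limma 3.58.1), other scaling, other filters, non-robust estimation and leaving out each library. Of the interferon list, 1 gene is not reported here. No 2 libraries of a group agreed within sampling noise.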

Additional observations from a re-analysis of the deposited data

How the results depend on the processing

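All 9 member log2 fold changes moved by less than the spread between replicates under every alternative run, with 1 exception. This was Parp2 with upper-quartile factors (0.08). Parp8 had no value under the filter of 1 CPM. The median of the 9 members lay between 0.08 and 0.14. The counts of called genes were less stable. DESeq2 called 205 genes higher and 286 lower, no filter 168 and 245, and a filter of 1 CPM in 3 libraries left 67 lower. With 1 library left out the counts ran from 35 (without aged replicate 2) to 135 (without aged replicate 3) higher and from 30 (without aged replicate 1) to 135 (without aged replicate 3) lower. Calls in the companion lists numbered 2, and became 3 with DESeq2 or no filter, 1 with limma-voom, upper-quartile factors or the filter of 1 CPM, and 0 to 2 with 1 library left out. The cause was not tested.

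Several uncalled genes near 0 changed sign. With upper-quartile factors the log2 fold change was -0.011 for Tnks2, -0.013 for Oard1 and -0.013 for H2afy; with the filter of 1 CPM it was -0.004, -0.005 and -0.006, and with RLE factors it was -0.001 for H2afy. Over the fits without 1 library Tnks2 ran from -0.054 to 0.030, Oard1 from -0.061 to 0.045, H2afy from -0.038 to 0.041, Apex1 from -0.046 to 0.040, Xrcc6 from -0.017 to 0.091, Tep1 from -0.013 to 0.113 and Rpph1 from -0.095 to 0.417. The median of all genes lay between -0.009 and 0.011 under the scaling alternatives. For the interferon-stimulated response element core, the count of members was the same on the given strand only. The gamma-activated site letters read the same on both strands, so for them this check could not come out otherwise. No paired analysis was possible because the labels give the groups no shared replicate numbers, only running library numbers that name single libraries. Depth limits Parp8, at 17 to 24 counts per library.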
